A study of Mus musculus with 9 samples.

Results

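The genes described here are 10 members of the NRF2 antioxidant response, chosen by name: Nfe2l2, Keap1, Hmox1, Nqo1, Gclc, Gclm, Txnrd1, Srxn1, Gsr and Prdx1. All 10 were found among the 22060 genes listed for macrophages and the 21936 genes listed for tumour cells, and all 10 passed the minimum mean of 1 CPM (counts per library scaled to a common total) in both tables. RNA was sequenced from mouse cells labelled C57BL, in 4 libraries of bone-marrow-derived macrophages (BMDM) and 5 of LLC, the Lewis lung carcinoma line, which derives from a mouse tumour. The macrophage libraries were GM-BMDM with tunicamycin for 4 h, untreated GM-BMDM, M-BMDM with tunicamycin for 4 h and untreated M-BMDM. GM-BMDM and M-BMDM are names from the labels, and tunicamycin is a blocker of N-linked glycosylation that stresses the endoplasmic reticulum (ER). LLC cells were cultured for 24 h in medium conditioned for 16 h by GM-BMDM or M-BMDM, which had been kept with tunicamycin for 12 h or without it and then washed, or were left untreated. Medium is called stressed where its macrophages had received tunicamycin, and unstressed where they had not. Tunicamycin was given for 4 h before macrophage RNA was taken. The labels do not say how untreated LLC cells were fed or whether libraries came from separate cultures. Each group held 1 library, so a difference between 2 libraries has no replicate check, and its interval covers counting error only.

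NRF2, encoded by Nfe2l2, is a transcription factor that is held at low level by KEAP1, which delivers it to a CUL3 ubiquitin ligase. When electrophiles or oxidants modify KEAP1, NRF2 accumulates, pairs with small MAF proteins and binds antioxidant response elements (ARE) in the promoters of genes for glutathione synthesis, thioredoxin recycling and heme breakdown. BACH1 competes for such elements and represses Hmox1 in particular. In macrophages this programme tempers oxidative damage and inflammation, and in lung tumours it is known for sustaining growth under oxidative stress. Much of the control acts on the NRF2 protein, which RNA sequencing does not measure.

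The promoters of 4 members that moved in the comparisons below are shown first, since NRF2 acts through the ARE. RefSeq windows of 300 bases, from 250 before to 50 after a gene's start on GRCm38.p6, were matched for 7 of the 10 genes, as 9 windows. Capitals mark a match to the ARE core TGACNNNGC, searched on both strands, and each sequence reads 5′ to 3′ along the gene. Gclm (chr3:122245307-122245606, plus strand), 1 of the windows of Txnrd1 (chr10:82858956-82859255, plus strand) and Srxn1 (chr2:152105274-152105573, plus strand) each held 1 match, on the opposite strand. Nqo1 (chr8:107403156-107403455, minus strand) is also shown, as it moved the other way between the macrophage kinds. Its window and the other windows of Txnrd1 held no match, and bases outside the windows were not searched. Hmox1, Gclc and Gsr had no window.
Gclm: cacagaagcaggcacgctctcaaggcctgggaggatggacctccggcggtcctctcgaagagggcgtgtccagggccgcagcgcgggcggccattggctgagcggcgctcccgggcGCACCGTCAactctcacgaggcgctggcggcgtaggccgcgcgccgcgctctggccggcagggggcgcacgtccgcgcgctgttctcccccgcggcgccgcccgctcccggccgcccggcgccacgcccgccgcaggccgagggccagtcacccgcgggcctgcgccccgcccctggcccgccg
Txnrd1: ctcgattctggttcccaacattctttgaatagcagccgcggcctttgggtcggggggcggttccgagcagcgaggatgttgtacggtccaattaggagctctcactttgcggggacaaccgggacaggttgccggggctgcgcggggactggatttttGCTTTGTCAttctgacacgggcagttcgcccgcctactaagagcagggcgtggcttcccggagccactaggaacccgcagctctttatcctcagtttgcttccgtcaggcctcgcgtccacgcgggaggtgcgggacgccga
Srxn1: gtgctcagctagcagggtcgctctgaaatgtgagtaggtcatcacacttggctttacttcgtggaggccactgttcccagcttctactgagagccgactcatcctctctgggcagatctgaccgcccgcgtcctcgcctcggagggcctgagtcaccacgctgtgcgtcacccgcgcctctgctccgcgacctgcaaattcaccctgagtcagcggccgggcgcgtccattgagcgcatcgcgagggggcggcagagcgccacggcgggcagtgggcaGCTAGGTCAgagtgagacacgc
Nqo1: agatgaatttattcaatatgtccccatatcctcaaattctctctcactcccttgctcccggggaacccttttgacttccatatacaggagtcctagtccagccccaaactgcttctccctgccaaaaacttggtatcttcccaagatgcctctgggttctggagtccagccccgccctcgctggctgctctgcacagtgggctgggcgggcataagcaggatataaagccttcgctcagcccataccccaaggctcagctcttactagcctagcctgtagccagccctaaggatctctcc

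The matched letters were GCACCGTCA from -134 in Gclm, GCTTTGTCA from -92 in Txnrd1 and GCTAGGTCA from 28 in Srxn1, counted from the RefSeq start. Nfe2l2 held a match from -240 and Prdx1 held 1 from -133, while the window of Keap1 held none. The AP-1 motif TGANTCA, which some AREs contain, was found 2 times each in Srxn1 and Prdx1, and the CCAAT box 1 time each in Gclm and Txnrd1. The ARE core was present in 12.4% of the 32851 RefSeq windows of this length, TGANTCA in 7.81% and CCAAT in 37.4%. A stretch can match both TGACNNNGC and TGANTCA. A match is a description of letters, and it does not show binding. Whether matches go with the direction of change was not tested.

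On the scale of FPKM, which divides reads by gene length and depth, Prdx1, a peroxiredoxin that removes hydrogen peroxide, was the member with the highest level in all 9 libraries. The values deposited by the authors for Prdx1 were 559 and 529 FPKM in tunicamycin-treated and untreated GM-BMDM, and 568 and 804 FPKM in tunicamycin-treated and untreated M-BMDM. In LLC cells they lay between 147 and 209 FPKM. Hmox1, the heme oxygenase that degrades heme, came next in all 4 macrophage libraries, at 148 to 404 FPKM, followed by Nfe2l2 at 99.7 to 203 FPKM. The lowest member was Keap1 in both GM-BMDM libraries, at 12.0 FPKM with tunicamycin and 10.6 FPKM untreated. In M-BMDM it was Nqo1, at 8.39 FPKM with tunicamycin and 11.5 FPKM untreated. In LLC cells Txnrd1 and Gsr held the ranks after Prdx1, and Nqo1 was lowest in the 4 libraries with medium, at 7.59 to 13.3 FPKM, while Keap1 was lowest in untreated cells, at 10.2 FPKM. Neighbours in this order changed places between libraries, as Txnrd1 at 46.3 FPKM and Srxn1 at 50.2 FPKM did in tunicamycin-treated GM-BMDM beside 49.4 and 49.2 FPKM in untreated GM-BMDM, and with 1 library a group such neighbours have no measured spread.

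Assigned reads totalled 37695079 to 42751176 per macrophage library and 15020068 to 17128471 per LLC library. All 10 macrophage markers passed the minimum in BMDM. In LLC cells 3 of the 10 passed it, and the list summed to 12.7 to 23.9 CPM, with Ptprc, Adgre1, Itgam and Tyrobp at 0 counts in all 5 libraries. Of 6 fibroblast markers 3 passed the minimum in LLC cells, and the list summed to 63.2 to 115.8 CPM. Of 8 epithelial markers, 2 passed the minimum in LLC cells, and Krt19 and Nkx2-1 were at 0 counts in all 5. Markers of neutrophils, of mast cells, basophils or eosinophils and of lymphocytes summed to 0.118 to 0.756 CPM there with none above the minimum, and 1 of 6 erythroid markers passed it. The tables and the GENCODE M21 annotation of GRCm38 gave equal coordinates for all 10 members. Nfe2l2 lies at chr2:75675513-75704641, Keap1 at chr9:21229730-21239361, Hmox1 at chr8:75093621-75100589, Nqo1 at chr8:107388225-107403206 and Gclc at chr9:77754535-77794485. Gclm lies at chr3:122245557-122270732, Txnrd1 at chr10:82833951-82897712, Srxn1 at chr2:152105516-152111376, Gsr at chr8:33652523-33698163 and Prdx1 at chr4:116685544-116700822. In that annotation Prdx1 has 2 pseudogenes of at least 95% identity, neither of which is in the tables, so its values are uncertain. Txnrd1 overlaps Eid3 on the same strand, whose highest count was 306 in macrophages and 46 in LLC cells.

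**Figure D1:**
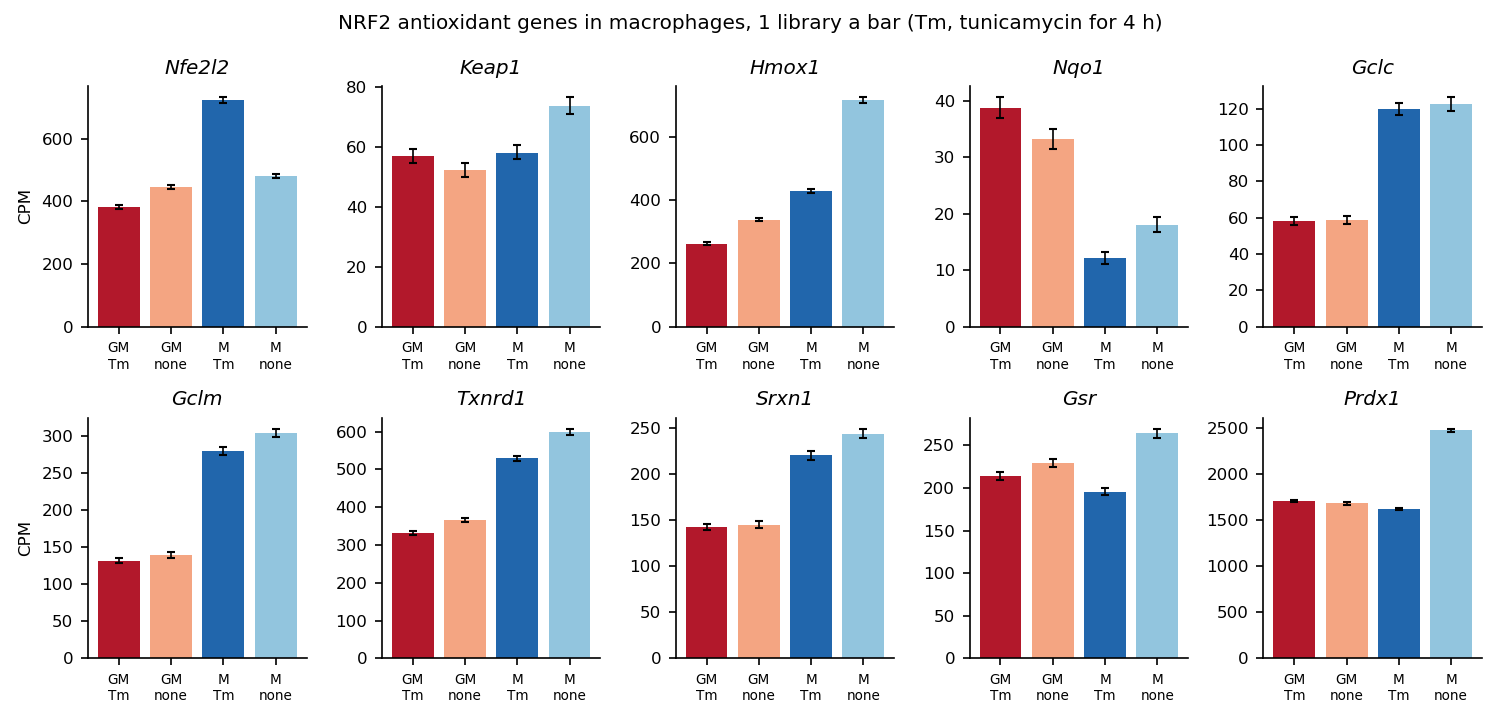
Levels of the 10 NRF2 antioxidant genes in CPM (vertical axes, each from 0) in the 4 macrophage libraries, with 1 library a bar and exact 95% Poisson intervals for counting error; Tm is tunicamycin. Gclc, Gclm, Txnrd1, Srxn1 and Hmox1 stood lower in both GM-BMDM libraries than in both M-BMDM libraries, and Nqo1 stood higher.

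The first comparison asks how GM-BMDM and M-BMDM differed in these genes. GM-BMDM held less RNA than M-BMDM for 5 of the 10 genes and more for 1. The genes that were lower were the subunits of glutamate-cysteine ligase, which makes the precursor of glutathione (Gclc for catalysis and Gclm as modifier), the heme oxygenase Hmox1, the thioredoxin reductase Txnrd1 and the sulfiredoxin Srxn1, which repairs overoxidised peroxiredoxins. Nqo1, a quinone reductase, was higher. The test was edgeR's quasi-likelihood fit with terms for kind and for tunicamycin over the 4 libraries, and rose or fell is written where its adjusted p was under 0.05. With 1 residual degree of freedom, its error is the difference between the tunicamycin responses of the kinds, moderated over genes. It is not a spread of replicates. Of all 11049 genes tested, 50.4% were called in this fit, 25.4% higher and 25.0% lower, beside 6 of 10 members, 1 higher and 5 lower. DESeq2 called 41.8% of all genes and 7 members, Nfe2l2 among them. The median log2 fold change was -0.60 over the members and -0.04 over all genes.

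Gclm had 131 CPM in tunicamycin-treated and 139 CPM in untreated GM-BMDM, against 279.8 CPM in tunicamycin-treated and 304 CPM in untreated M-BMDM. Both GM-BMDM libraries lay below both M-BMDM libraries, with the pairs of a kind close together. How many of all genes separate the kinds in this way was not counted. The log2 fold change was -1.11 ± 0.11 (SE, adjusted p = 2.5e-04, edgeR). Gclc had 58.1 CPM in tunicamycin-treated and 58.7 CPM in untreated GM-BMDM, against 119.9 CPM in tunicamycin-treated and 122 CPM in untreated M-BMDM. The log2 fold change of Gclc was -1.05 ± 0.11 (adjusted p = 2.9e-04), beside -1.11 for its partner. In untreated cells Gclm was 2.18-fold lower in GM-BMDM (2.12 to 2.26) and Gclc 2.09-fold lower (1.98 to 2.19).

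Hmox1 had 262 CPM in tunicamycin-treated and 338 CPM in untreated GM-BMDM, against 428 CPM in tunicamycin-treated and 715 CPM in untreated M-BMDM. The libraries of a kind were further apart here, and Hmox1 fell by 0.89 ± 0.14 on the log2 scale (adjusted p = 0.0018). Txnrd1 had 330.5 and 366 CPM in tunicamycin-treated and untreated GM-BMDM, against 529 and 599 CPM in tunicamycin-treated and untreated M-BMDM. Srxn1 had 143 and 145 CPM in tunicamycin-treated and untreated GM-BMDM, against 220.3 and 244 CPM in tunicamycin-treated and untreated M-BMDM. The log2 fold changes were -0.69 ± 0.12 for Txnrd1 (adjusted p = 0.0027) and -0.69 ± 0.11 for Srxn1 (adjusted p = 0.0025).

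Nqo1 had 38.7 and 33.2 CPM in tunicamycin-treated and untreated GM-BMDM, against 12.2 and 18.1 CPM in tunicamycin-treated and untreated M-BMDM. It was the member with the opposite order, and it rose by 1.27 ± 0.20 (adjusted p = 0.0020). The regulators were not called. Nfe2l2 had 381 and 444 CPM in tunicamycin-treated and untreated GM-BMDM, against 723 and 480.0 CPM in tunicamycin-treated and untreated M-BMDM, with a log2 fold change of -0.52 ± 0.20 and an adjusted p of 0.065. Over the alternatives that p ranged from 0.02 to 0.091, and it passed with DESeq2 (0.029) and with no minimum (0.02). Keap1 had a log2 fold change of -0.26 ± 0.14 (adjusted p = 0.17), the glutathione reductase Gsr -0.04 ± 0.13 (0.84) and Prdx1 -0.24 ± 0.18 (0.30).

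Between 2 libraries, 3 members were at least 2-fold lower in untreated GM-BMDM than in untreated M-BMDM (Hmox1, Gclc and Gclm) and 0 were higher, where 7.02% of all genes were lower and 12.4% higher. With tunicamycin in both kinds, 2 were at least 2-fold lower (Gclc and Gclm) and 1 was higher (Nqo1, 3.17-fold, 2.87 to 3.5), where 7.82% of all genes were lower and 12.6% higher. At a fold of 1.5, a size added after the data were seen, 6 members differed in untreated cells beside 34.3% of all genes, and 7 with tunicamycin beside 37.4%. The neutrophil markers also moved with kind, at a summed 1608 and 1680 CPM in tunicamycin-treated and untreated GM-BMDM, against 31.9 and 50.5 CPM in tunicamycin-treated and untreated M-BMDM. Of these 10 markers 5 were tested and all 5 rose, and Elane was at 0 counts in untreated M-BMDM. Macrophage markers summed to 37609 and 39799 CPM in tunicamycin-treated and untreated GM-BMDM, against 32316 and 51652 CPM in tunicamycin-treated and untreated M-BMDM. Of these 10, 4 were at least 2-fold lower and 1 higher in untreated GM-BMDM than in untreated M-BMDM. With tunicamycin in both kinds 3 were lower and 1 higher. Mast cell, basophil and eosinophil markers summed to 105.8 and 138 CPM against 1.28 and 1.69 CPM, in the same order, and mitochondrial genes took 1.59% and 1.86% of counts against 0.861% and 0.899%. Epithelial markers summed to 32.4 and 74.0 CPM in GM-BMDM and 0.284 and 0.107 CPM in M-BMDM, and lymphocyte markers to 0.613 and 0.72 CPM in GM-BMDM and 8.01 and 8.27 CPM in M-BMDM, each on 1 tested marker. Fibroblast and erythroid markers all stayed under the minimum in macrophages. Their part in the result was not tested, and in bulk RNA fewer cells of a type and less RNA per cell cannot be told apart.

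**Figure D2:**
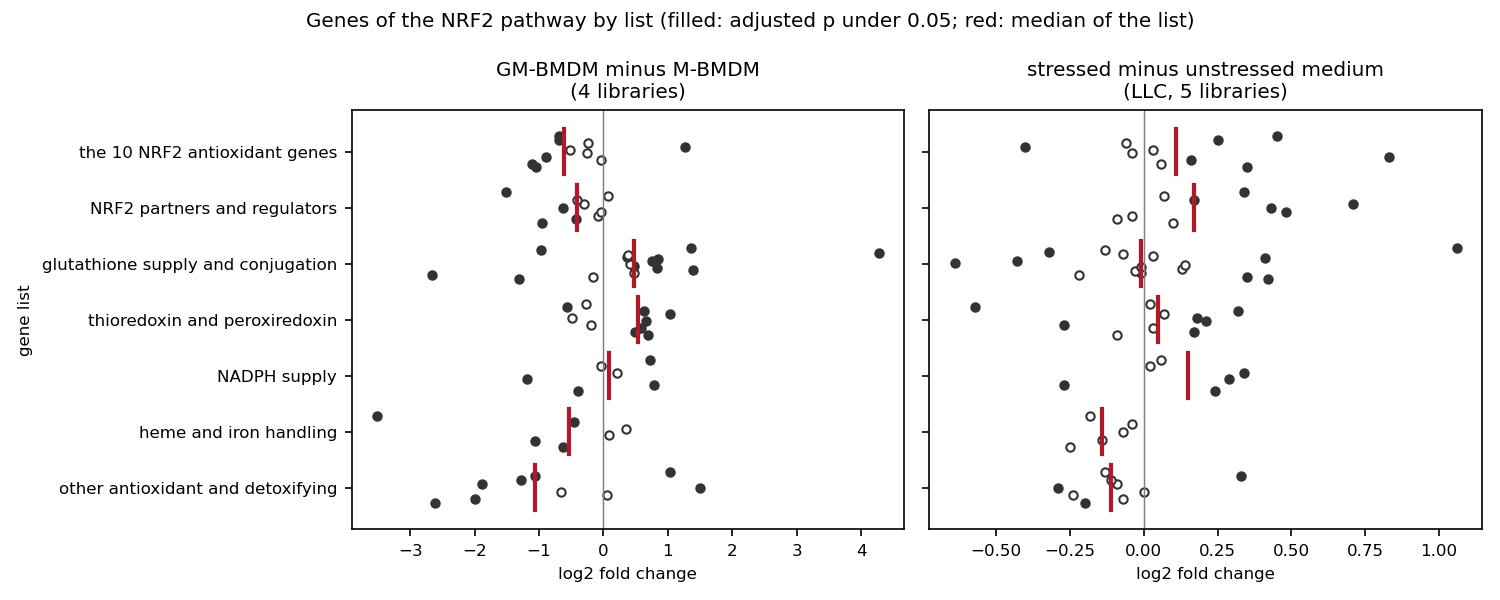
Log2 fold changes (horizontal axes) of the 10 genes and of 6 further lists of the NRF2 pathway (rows) for GM-BMDM minus M-BMDM and for stressed minus unstressed medium in LLC cells, with each point a gene, filled points called by edgeR and red lines marking medians. In macrophages the medians of the 10 genes, partners and regulators, heme and iron handling, and other antioxidant and detoxifying genes lay below 0. Those of glutathione supply and of thioredoxin and peroxiredoxin lay above 0.

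The wider pathway held calls in both directions between the kinds, in a fit that called 25.4% of all genes higher and 25.0% lower. The share of all genes called without the tunicamycin term is not given here, so list counts from that fit have no share beside them. Among 9 partners and regulators of NRF2, 0 rose and 4 fell in GM-BMDM, with a median log2 fold change of -0.41, and the share called is below the 50.4% of all genes. DESeq2 and the fit without the tunicamycin term called 3 of them, not Btrc. Sqstm1, the autophagy receptor p62 that can sequester KEAP1, had 588 and 538 CPM in tunicamycin-treated and untreated GM-BMDM, against 2373 and 1102 CPM in tunicamycin-treated and untreated M-BMDM, and fell by 1.52 ± 0.23 (adjusted p = 0.0018). The competitor Bach1 fell by 0.95 ± 0.12 (adjusted p = 6.2e-04) and the small MAF partner Mafg fell by 0.62 ± 0.11 (adjusted p = 0.0033), while Btrc, part of another ubiquitin ligase for NRF2, fell by 0.43 ± 0.14 (adjusted p = 0.040).

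Of 15 tested genes for glutathione supply and conjugation, 8 rose and 3 fell, in the fit that called 50.4% of all genes. In the separate fit without the tunicamycin term 6 rose and 1 fell. Slc7a11, the cystine importer that feeds glutathione synthesis, had 355 and 377 CPM in tunicamycin-treated and untreated GM-BMDM, against 194.0 and 104.5 CPM in tunicamycin-treated and untreated M-BMDM. It rose by 1.36 ± 0.23 (adjusted p = 0.0025), the opposite direction to Gclc and Gclm. Mgst2, a microsomal glutathione transferase, rose by 4.28 ± 0.18 and Glrx, a glutaredoxin, by 1.39 ± 0.24, while Abcc1, an exporter of glutathione conjugates, fell by 1.31 ± 0.12. In the thioredoxin and peroxiredoxin list 6 of 10 rose and 1 fell, among them Txn1, the substrate of thioredoxin reductase, with 1.03 ± 0.13, against Txnip, which inhibits thioredoxin, with -0.57 ± 0.13. Both directions were present in NADPH supply, where 2 rose and 2 fell of 6, or 1 and 1 without the tunicamycin term, with Tkt at 0.73 ± 0.14 and Me1 at -1.18 ± 0.17.

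Heme and iron handling held no gene that rose by edgeR and 4 of 6 that fell. DESeq2 called 1 that rose (Ftl1) and 4 that fell, and without the tunicamycin term 3 fell. The iron exporter Slc40a1 had 15.4 and 21.9 CPM in tunicamycin-treated and untreated GM-BMDM, against 127.6 and 345 CPM in tunicamycin-treated and untreated M-BMDM, with a log2 fold change of -3.52 ± 0.23 (adjusted p = 3.1e-05). Blvrb, a biliverdin reductase that acts after heme oxygenase, fell by 1.06 ± 0.12. Of 9 other antioxidant and detoxifying genes 2 rose and 5 fell, among them the catalase Cat with -2.0 ± 0.14, the superoxide dismutases Sod1 with -1.28 ± 0.12 and Sod2 with -1.07 ± 0.12, and the epoxide hydrolase Ephx1 with 1.5 ± 0.13.

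The second comparison asks what 4 h of tunicamycin did in macrophages. No member was called in the additive fit, in which edgeR called 0.0% of all genes (0 of 11049), while 9.98% (1103 genes) had an unadjusted p under 0.05 and DESeq2 called 0.471% (52 genes) and 0 members. Hmox1 was the member with an unadjusted p under 0.05, with a log2 fold change of -0.56 ± 0.14 and an adjusted p of 0.41. In GM-BMDM it had 262 CPM with tunicamycin against 338 CPM untreated, 1.29-fold lower (1.26 to 1.32). In M-BMDM it had 428 CPM with tunicamycin against 715 CPM untreated, 1.67-fold lower (1.64 to 1.70). The value with tunicamycin was thus below the untreated value in both kinds.

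At 2-fold, 0 members differed with tunicamycin in GM-BMDM, where 0.0634% of all genes were higher and 0.443% lower. In M-BMDM 0 differed as well, where 1.18% were higher and 0.29% lower, or 1.5% and 0.154% with libraries scaled by total counts. The member medians were -0.05 in GM-BMDM and -0.26 in M-BMDM, beside 0.0 for all genes. Of the 10 genes 3 lay above 0 in GM-BMDM, beside 50.3% of all genes, and 1 in M-BMDM, beside 50.8%. With total counts 5 and 2 lay above 0, since Gclc moved above 0 in both kinds and Srxn1 in GM-BMDM. The total-count scaling moved the median of all genes in M-BMDM by 0.1. At a fold of 1.5, 0 members differed in GM-BMDM and 3 in M-BMDM (Nfe2l2, Hmox1 and Prdx1), beside 6.92% of all genes. Summed macrophage markers were 32316 CPM with tunicamycin against 51652 CPM untreated in M-BMDM, and 37609 CPM with tunicamycin against 39799 CPM untreated in GM-BMDM, and their part in these values was not tested.

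The sign of the response differed between the kinds for 4 members, though Prdx1 was near no change in GM-BMDM. Nfe2l2 had 381 CPM with tunicamycin against 444 CPM untreated in GM-BMDM, and 723 CPM with tunicamycin against 480.0 CPM untreated in M-BMDM. It was thus 1.17-fold lower in GM-BMDM (1.14 to 1.19) and 1.51-fold higher in M-BMDM (1.48 to 1.53), a difference of responses of -0.81 on the log2 scale, GM-BMDM minus M-BMDM. Prdx1 had 1712 CPM with tunicamycin against 1683 CPM untreated in GM-BMDM, and 1622 CPM with tunicamycin against 2476 CPM untreated in M-BMDM. Its level moved little in GM-BMDM and was 1.53-fold lower in M-BMDM (1.51 to 1.54).

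Nqo1 was 1.17-fold higher with tunicamycin in GM-BMDM (1.09 to 1.26) and 1.48-fold lower in M-BMDM (1.32 to 1.66). Keap1 differed by 0.12 on the log2 scale in GM-BMDM and was 1.27-fold lower in M-BMDM (1.20 to 1.34). Gclc, Gclm, Txnrd1 and Srxn1 differed between the kinds in response by 0.01 to 0.12, Gsr by 0.33 and Hmox1 by 0.37. None of the 10 reached a difference of 1, where 1.58% of all genes did. The design leaves no degree of freedom to test these differences.

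Some genes of the further lists, which group genes by function, showed larger responses in M-BMDM. Whether NRF2 drove the responses in M-BMDM was not tested. Among the partners and regulators 3 of 9 were at least 2-fold higher there, beside 1.18% of all genes, and 0 were in GM-BMDM. Nfe2l1, a relative of NRF2 known for controlling proteasome genes, had 453 CPM with tunicamycin against 171 CPM untreated in M-BMDM, 2.65-fold higher (2.58 to 2.73). Maff, a small MAF protein, was 3.29-fold higher (2.64 to 4.13), and Sqstm1 had 2373 CPM with tunicamycin against 1102 CPM untreated. Slc3a2, the partner chain of Slc7a11, was 3.04-fold higher (2.95 to 3.13), and Sesn2, a sestrin, 4.92-fold higher (4.55 to 5.32).

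Chac1, which degrades glutathione, had 49.4 CPM with tunicamycin against 0.537 CPM untreated in M-BMDM and 5.11 CPM with tunicamycin against 0.546 CPM untreated in GM-BMDM. All 6 genes of heme and iron handling lay below 0 in both kinds, with medians of -0.12 in GM-BMDM and -0.33 in M-BMDM, where 50.3% and 50.8% of all genes lay above 0. With total counts 4 of them lay below 0 in GM-BMDM and 5 in M-BMDM. Of the 6 genes of NADPH supply 3 lay below 0 in GM-BMDM and all 6 in M-BMDM, with medians of -0.05 and -0.46, and with total counts 3 and 6 did. Idh1, an NADPH-producing isocitrate dehydrogenase, was 1.73-fold lower (1.70 to 1.76) and Slc40a1 2.70-fold lower (2.62 to 2.79) in M-BMDM with tunicamycin.

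**Figure D3:**
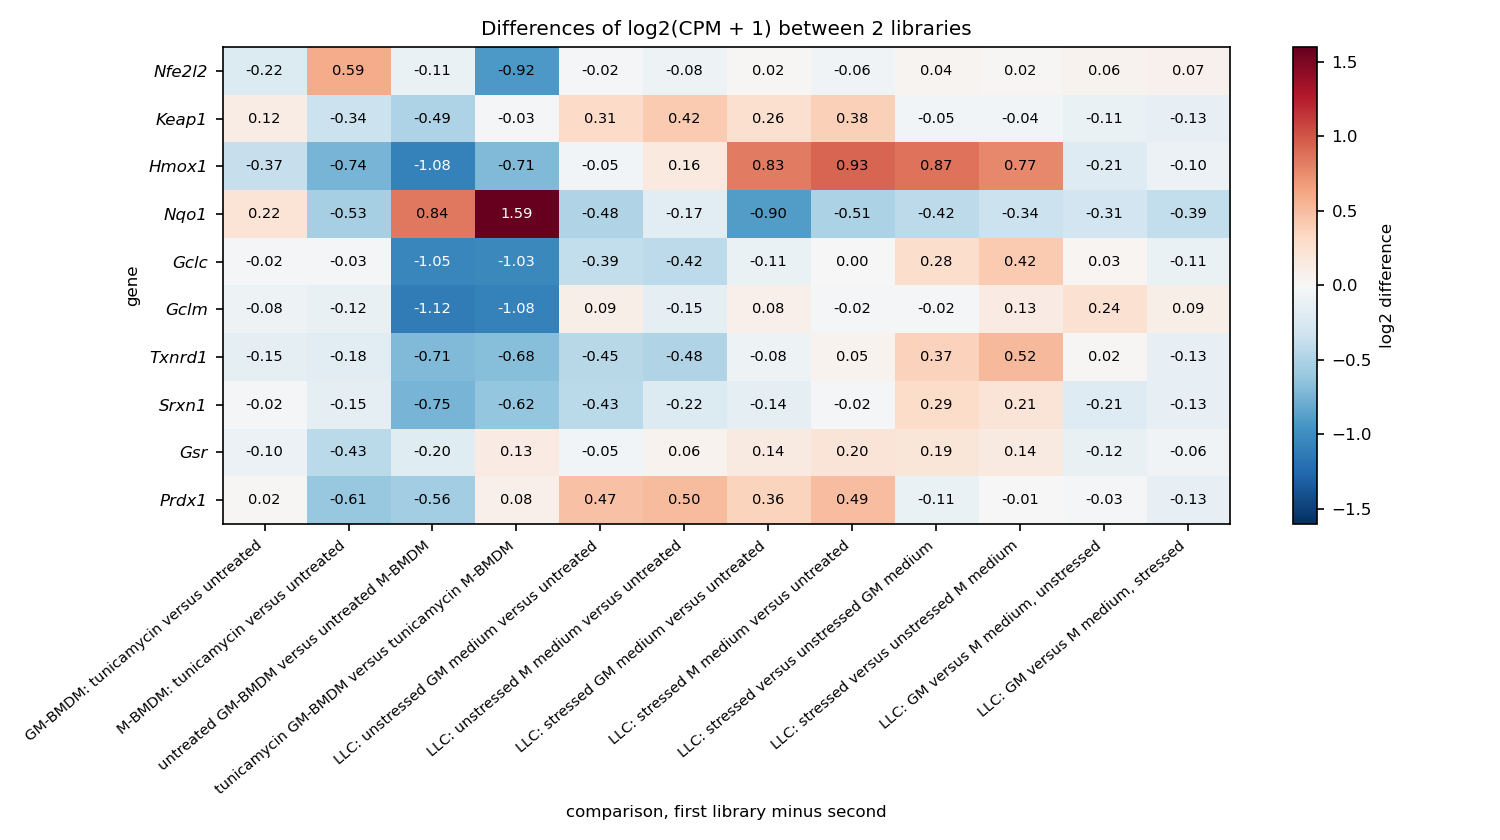
Differences of log2(CPM + 1) for the 10 genes (rows) in the 12 comparisons of 2 libraries (columns), first library minus second, with red for higher and blue for lower in the first. Untreated macrophage kinds differed most for Gclc, Gclm, Hmox1 and Nqo1, tunicamycin-treated kinds for Nqo1, Gclm, Gclc and Nfe2l2, and Hmox1 stood 0.77 to 0.93 higher in LLC cells with stressed medium, set against unstressed medium or against untreated cells.

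The third comparison asks whether the stress of the macrophages that made the medium left a trace in LLC cells. With stressed medium, 5 of the 10 genes rose and 1 fell, namely Hmox1, Txnrd1, Gclc, Srxn1 and Gsr upwards and Nqo1 downwards. Hmox1 changed most and the other 4 that rose changed by less than 1.5-fold. The edgeR fit used the 5 LLC libraries with the kind of medium and the presence of medium as further terms, and it called 23.3% of 11190 genes, 12.5% higher and 10.9% lower. The median log2 fold change was 0.11 over the members and 0.0 over all genes. The LLC fit had 1 residual degree of freedom and shared 1 variance trend over all genes (coefficient of variation 4.28%), so its p-values do not rest on each gene's own spread, and DESeq2 called 2 of these members (Hmox1 and Txnrd1) and 4.05% of all genes. Without the kind of medium as a term, 3 members were called (Hmox1, Txnrd1 and Gclc).

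**Figure D4:**
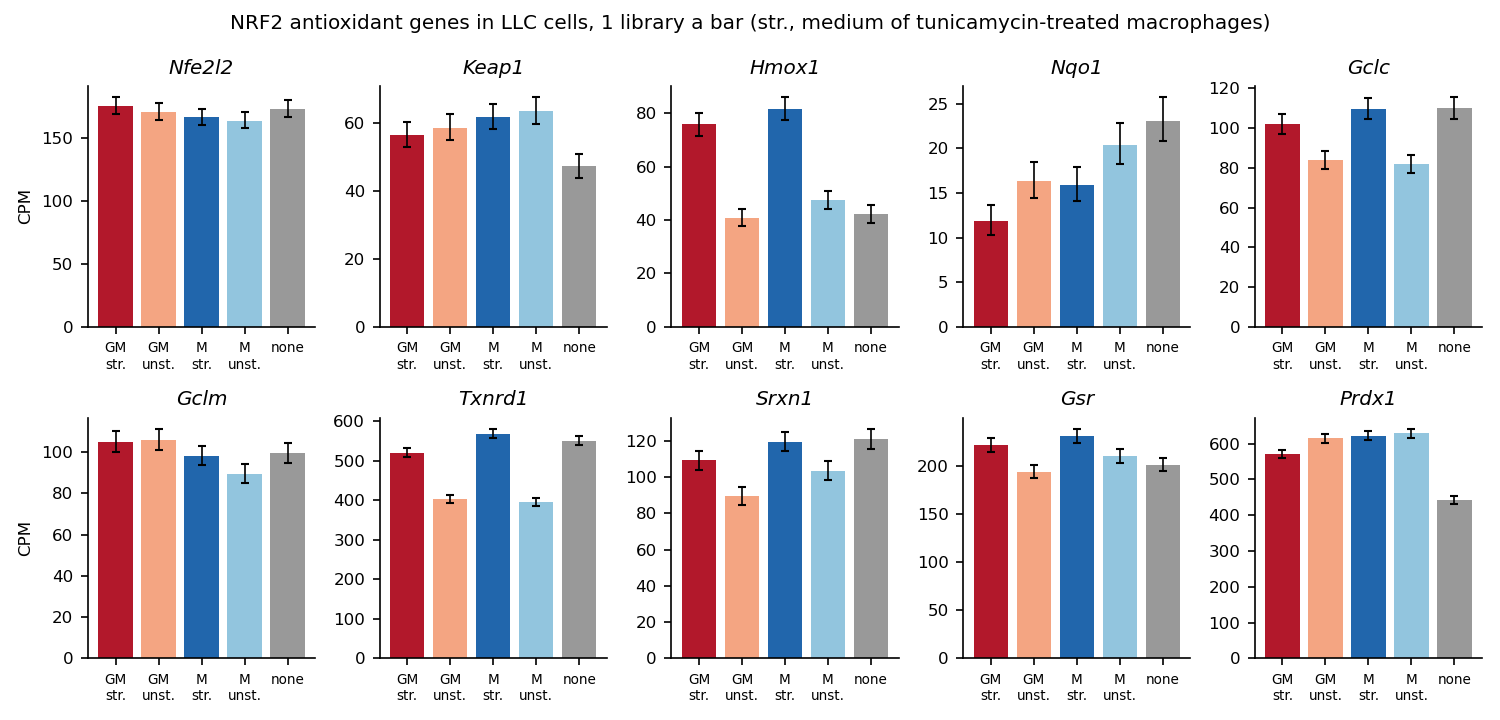
Levels of the 10 genes in CPM (vertical axes, each from 0) in the 5 LLC libraries, with 1 library a bar and exact 95% Poisson intervals for counting error; str. is medium of tunicamycin-treated macrophages, unst. medium of macrophages without it, and none untreated LLC cells. Hmox1 stood at 75.9 and 81.6 CPM with stressed medium and at 40.9 to 47.5 CPM in the other 3 libraries.

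Hmox1 had 75.9 CPM with stressed and 40.9 CPM with unstressed GM medium, 81.6 CPM with stressed and 47.5 CPM with unstressed M medium, and 42.4 CPM in untreated cells. Both stressed libraries lay above all 3 others, and the unstressed media were close to untreated cells. The gene was 1.85-fold higher with GM medium (1.68 to 2.04) and 1.72-fold higher with M medium (1.57 to 1.88), and the fit gave a log2 fold change of 0.83 ± 0.075 (adjusted p = 8.0e-26). That p ranged from 9.8e-27 to 0.0015 over the alternatives.

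Txnrd1 had 519 CPM with stressed and 402 CPM with unstressed GM medium, 569 CPM with stressed and 395 CPM with unstressed M medium, and 550.1 CPM in untreated cells. Both stressed libraries lay above both unstressed ones, and untreated cells lay between the stressed libraries. It rose by 0.45 ± 0.055 (adjusted p = 3.2e-14). Gclc had 102 CPM with stressed and 83.8 CPM with unstressed GM medium, 109.8 CPM with stressed and 81.8 CPM with unstressed M medium, and 110.0 CPM in untreated cells. Srxn1 had 109 CPM with stressed and 89.4 CPM with unstressed GM medium, 119.6 CPM with stressed and 103.5 CPM with unstressed M medium, and 121 CPM in untreated cells. Gclc rose by 0.35 ± 0.064 (adjusted p = 8.4e-07) and Srxn1 by 0.25 ± 0.063 (adjusted p = 8.0e-04). How many of all genes separate the stressed from the unstressed libraries was not counted.

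These 3 genes had a different relation to untreated cells than Hmox1. Set against the untreated library, their log2 differences were between -0.48 and -0.22 with unstressed media and between -0.14 and 0.05 with stressed media. Hmox1 differed by -0.05 and 0.16 with unstressed media and by 0.83 and 0.93 with stressed media. All of these comparisons share 1 untreated library.

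Gsr had 221 CPM with stressed and 194 CPM with unstressed GM medium, 231 CPM with stressed and 209.9 CPM with unstressed M medium, and 201 CPM in untreated cells, and it rose by 0.16 ± 0.058 (adjusted p = 0.023). Nqo1 had 11.9 CPM with stressed and 16.3 CPM with unstressed GM medium, 15.9 CPM with stressed and 20.4 CPM with unstressed M medium, and 23.1 CPM in untreated cells. Counting intervals of stressed M medium (14.1 to 17.9 CPM) and unstressed GM medium (14.4 to 18.5 CPM) overlapped, so the stressed libraries were not set apart from all others. The log2 fold change of Nqo1 was -0.40 ± 0.13 (adjusted p = 0.012, edgeR). Nfe2l2 (0.03 ± 0.059, adjusted p = 0.75), Keap1 (-0.04 ± 0.075, 0.72), Gclm (0.06 ± 0.063, 0.56) and Prdx1 (-0.06 ± 0.054, 0.46) were not called. Gclc and Gclm, which encode subunits of 1 enzyme, thus had log2 fold changes of 0.35 and 0.06, and the difference between the genes was not tested.

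At 2-fold, 0 members differed between stressed and unstressed medium of GM-BMDM, where 0.518% of all genes differed in either direction, and 0 with medium of M-BMDM, where 0.554% did. At a fold of 1.5, Hmox1 differed with either medium, beside 3.66% of all genes for GM-BMDM and 4.73% for M-BMDM. The responses to stressed medium of the 2 kinds lay within 0.15 of each other on the log2 scale for all 10 genes, and 0.438% of all genes reached a difference of 1. Fibroblast markers summed to 74.1 CPM with stressed and 115.8 CPM with unstressed GM medium, 63.2 CPM with stressed and 99.1 CPM with unstressed M medium, and 92.4 CPM in untreated cells, with Thy1 at 0 counts in all 5. Of these 6 markers 3 were tested and 2 fell, as did both tested epithelial markers, and their part in the result was not tested.

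**Figure D5:**
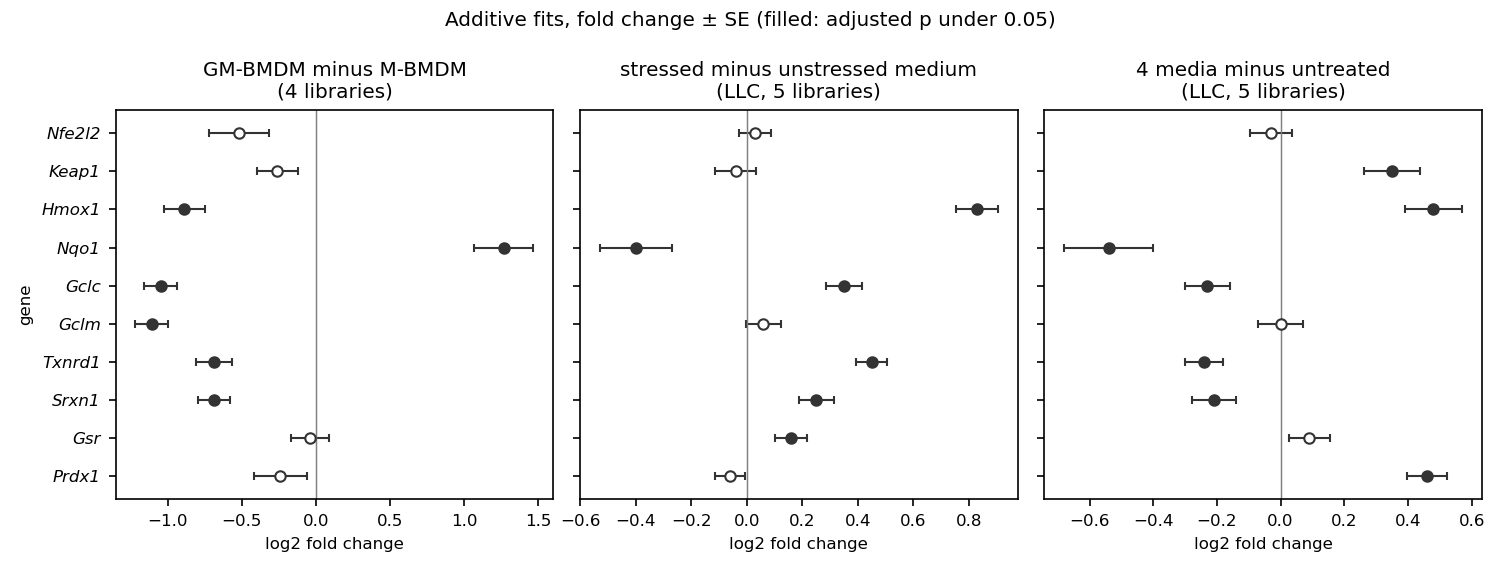
Log2 fold changes (horizontal axes) with 1 SE for the 10 genes (rows) in 3 additive edgeR fits, GM-BMDM minus M-BMDM over 4 libraries and 2 contrasts over the 5 LLC libraries, with filled points for an adjusted p under 0.05. Hmox1 lay at -0.89 between the macrophage kinds, 0.83 with stressed medium and 0.48 with medium.

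Of the partners and regulators 5 of 9 rose with stressed medium and 0 fell, with a median of 0.17, where 12.5% of all genes rose and 10.9% fell. The small MAF genes on the list were all among them, and DESeq2 called 4, all but Nfe2l1. Mafk had 30.7 CPM with stressed and 20.5 CPM with unstressed GM medium, 30.3 CPM with stressed and 17.0 CPM with unstressed M medium, and 29.9 CPM in untreated cells. It rose by 0.71 ± 0.11 (adjusted p = 6.6e-09), Maff by 0.48 ± 0.085 (4.6e-07) and Mafg by 0.43 ± 0.060 (5.3e-11). Sqstm1 rose by 0.34 ± 0.053 and Nfe2l1 by 0.17 ± 0.056.

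In glutathione supply and conjugation 4 of 16 rose and 3 fell, beside 23.3% of all genes called, and of these DESeq2 called 3 and 2. Slc7a11 had 53.7 CPM with stressed and 24.1 CPM with unstressed GM medium, 42.9 CPM with stressed and 21.9 CPM with unstressed M medium, and 23.8 CPM in untreated cells. Like Hmox1 it was above untreated cells with both stressed media, and it rose by 1.06 ± 0.098 (adjusted p = 6.1e-25). The exporters Abcc1 and Abcc4 rose by 0.42 ± 0.059 and 0.35 ± 0.070, while the glutathione transferases Gsta4, Gstm1 and Mgst2 fell by 0.64 ± 0.093, 0.43 ± 0.062 and 0.32 ± 0.070. In NADPH supply 3 of 6 rose, the pentose phosphate dehydrogenases Pgd by 0.34 ± 0.057 and G6pdx by 0.24 ± 0.060 and the malic enzyme Me1 by 0.29 ± 0.061, and Idh1 fell by 0.27 ± 0.053. DESeq2 called Pgd and Idh1.

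The thioredoxin and peroxiredoxin list had 4 of 10 that rose, among them the mitochondrial thioredoxin Txn2 with 0.32 ± 0.063, and 2 that fell, Txnip with -0.57 ± 0.059 and Prdx5 with -0.27 ± 0.066. The fit with the kind of medium called 23.3% of all genes. DESeq2 called 1 of these list genes, Txnip, beside 4.05% of all genes. Without the kind of medium edgeR called 2, Txnip and Txn2, and its shares of all genes are given at the end. None of the 5 tested genes of heme and iron handling was called by edgeR, with 1 at an unadjusted p under 0.05. Of 9 other antioxidant genes 1 rose, the mitochondrial superoxide dismutase Sod2 with 0.33 ± 0.067, and 2 fell, Ephx1 with -0.29 ± 0.065 and the aldo-keto reductase Akr1b8 with -0.20 ± 0.067, of which DESeq2 called 0.

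The fourth comparison sets the 4 conditioned media together against untreated LLC cells. The untreated arm is 1 library, which the fit matches exactly, so the whole spread comes from the 4 libraries with medium and the untreated library is assumed to vary like them. Under that assumption Prdx1, Hmox1 and Keap1 rose and Nqo1, Txnrd1, Gclc and Srxn1 fell, 7 of 10 members, where edgeR called 46.7% of all genes, 24.9% higher and 21.9% lower. Prdx1 had 570.1 CPM with stressed and 615 CPM with unstressed GM medium, 622 CPM with stressed and 628 CPM with unstressed M medium, and 443 CPM in untreated cells. All 4 media lay above the untreated library, and the log2 fold change was 0.46 ± 0.062 (adjusted p = 4.3e-12). Keap1 had 56.5 CPM with stressed and 58.5 CPM with unstressed GM medium, 61.7 CPM with stressed and 63.4 CPM with unstressed M medium, and 47.2 CPM in untreated cells. It too was above untreated cells with every medium, by 0.35 ± 0.088 in the fit (adjusted p = 3.2e-04).

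Nqo1 was highest in untreated cells, and it fell by 0.54 ± 0.14 with medium (adjusted p = 2.5e-04). Hmox1 rose by 0.48 ± 0.090 (adjusted p = 7.9e-07), an average over stressed media above and unstressed media near the untreated level. Txnrd1, Gclc and Srxn1 had log2 fold changes of -0.24 ± 0.060, -0.23 ± 0.070 and -0.21 ± 0.069. These values are averages too. Against untreated cells the genes differed by -0.48 to -0.22 with unstressed media and by -0.14 to 0.05 with stressed media. Nfe2l2 had -0.03 ± 0.066 (adjusted p = 0.70), Gclm 0.0 ± 0.070 (1) and Gsr 0.09 ± 0.065 (0.27). DESeq2 called 3 of the 7 members (Prdx1, Hmox1 and Txnrd1) and 17.8% of all genes, and without the terms for kind and stress edgeR called 1 (Prdx1).

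Against untreated cells 0 members were at least 2-fold different with stressed GM, unstressed GM, stressed M or unstressed M medium, where 3.89%, 2.97%, 3.36% and 1.9% of all genes were, in that order. At a fold of 1.5, 2 differed with stressed GM medium, beside 15.8% of all genes, and 1 with stressed M medium, beside 15.1%. The members nearest to 2-fold were Hmox1, 1.93-fold higher with stressed M medium (1.75 to 2.12), and Nqo1, 1.94-fold lower with stressed GM medium (1.62 to 2.33). Epithelial markers moved with medium too, at a summed 454 and 527 CPM with stressed and unstressed GM medium, 460.3 and 525 CPM with stressed and unstressed M medium, and 364 CPM in untreated cells. Of the 2 tested, 1 rose and 1 fell. The 3 tested macrophage markers fell with medium, their list summing to 12.7 to 17.5 CPM with the 4 media and 23.9 CPM in untreated cells. Of 3 tested fibroblast markers 1 rose, and the tested erythroid marker, at a log2 fold change of 0.9, was not called. The part of these markers in the result was not tested.

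The list counts of this contrast rest on the same assumption about the untreated library. Those of the full edgeR fit stand beside 24.9% of all genes that rose and 21.9% that fell. Those of DESeq2 stand beside 17.8% of all genes called, and the shares without the terms for kind and stress are given at the end. The thioredoxin and peroxiredoxin list held 7 of 10 genes that rose and 1 that fell, with a median of 0.26 beside 0.02 for all genes. DESeq2 called 2 of them (Txn1 and Sesn2), and the fit without the terms for kind and stress called 3, Prdx2 besides. Txn1 rose by 0.50 ± 0.064 and Sesn2 by 0.81 ± 0.074, and Txnip fell by 0.23 ± 0.065. Of the partners and regulators 2 of 9 rose and 4 fell, 1 and 3 with DESeq2, which did not call Mafk, and 0 and 2 without the terms for kind and stress, where Maff and Bach1 were called. Maff fell by 0.90 ± 0.085 and Bach1 by 0.82 ± 0.082, and Mafg and Mafk, which had risen with stressed against unstressed medium, fell by 0.42 ± 0.064 and 0.32 ± 0.12. For Mafk the fall lay in the unstressed media. It had 30.7 and 30.3 CPM with stressed GM and M medium, 20.5 and 17.0 CPM with unstressed, and 29.9 CPM in untreated cells. Bach1 had 41.4 CPM with stressed and 39.5 CPM with unstressed GM medium, 53.4 CPM with stressed and 48.6 CPM with unstressed M medium, and 80.0 CPM in untreated cells.

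In heme and iron handling 1 of 5 rose and 4 fell, or 1 and 2 without the terms for kind and stress, among them the biliverdin reductases Blvra with 0.91 ± 0.17 and Blvrb with -0.64 ± 0.12. Glutathione supply and conjugation had 6 of 16 that rose, with Chac1 at 1.87 ± 0.14 and Gpx1, a glutathione peroxidase, at 0.55 ± 0.069, and 4 that fell, with Gstm1 at -0.78 ± 0.065. Without the terms for kind and stress 4 rose and 1 fell there, Chac1 and Gpx1 among those that rose and Gstm1 not called. In NADPH supply 2 of 6 rose and 2 fell, or 0 and 1 without those terms, and Idh1 changed most, with 720.5 CPM with stressed and 835 CPM with unstressed GM medium, 756 CPM with stressed and 948 CPM with unstressed M medium, and 1564 CPM in untreated cells. Of 9 other antioxidant genes 2 rose and 2 fell, or 1 and 0 without those terms, with Ugdh, which makes UDP-glucuronate, at 0.56 ± 0.072 and Osgin1 at -0.53 ± 0.089.

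The fifth comparison asks whether the kind of macrophage that made the medium mattered. No member was called between GM and M medium by edgeR, which called 4.53% of all genes, and 4 members had an unadjusted p under 0.05, beside 13.5% of all genes. DESeq2 called 0 members and 0.277% of all genes. The 4 were Nqo1 (-0.37 ± 0.13, adjusted p = 0.082), Srxn1 (-0.17 ± 0.063, 0.11), Gclm (0.17 ± 0.063, 0.12) and Hmox1 (-0.15 ± 0.075, 0.34). At 2-fold, 0 members differed between stressed GM and stressed M medium, where 0.259% of all genes did, and 0 between the unstressed media, where 0.188% did. Of the pathway lists, which name 57 genes, 3 genes rose and 5 fell by edgeR, where 2.21% of all genes rose and 2.32% fell. DESeq2 called 1 (Gstm1), and edgeR without the term for stress called 0 genes of these lists. In the full edgeR fit Gstm1 had -0.46 ± 0.062 (adjusted p = 8.5e-11) and Bach1 -0.33 ± 0.081 (adjusted p = 0.0020).

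The spread of the members over their libraries was larger in macrophages for some members and similar for others. The macrophage libraries differ in kind and drug and the LLC libraries in medium, so the 2 spreads are of unlike designs. The spread of all genes was not compared. In macrophages the highest over the lowest library was 3.17 for Nqo1, 2.73 for Hmox1, 2.31 for Gclm and 2.11 for Gclc, and in LLC cells it was 1.94, 1.99, 1.18 and 1.34 in that order. Nfe2l2 spanned 1.90-fold in macrophages and 1.07-fold in LLC cells, Txnrd1 1.81-fold and 1.44-fold, and Srxn1 1.71-fold and 1.35-fold. Keap1 spanned 1.41-fold in macrophages and 1.34-fold in LLC cells, Prdx1 1.53-fold and 1.42-fold, and Gsr 1.35-fold and 1.19-fold. For the 4 genes that spanned at least 1 on the log2 scale in macrophages, the genes of most similar pattern were sought among 8250 genes, by the root mean square difference of log2(CPM + 1) centred within each table over the 9 libraries. Nearest to Gclc were Vps37c (0.06), the NADPH-producing Me1 (0.07) and Itpkc (0.08), and nearest to Gclm were Ifngr1 (0.05), Gmip (0.07) and Ccdc50 (0.07). Nqo1 was nearest to Fuca2 (0.13), Ctsd (0.15) and Emb (0.15). For Hmox1 the nearest were Itpripl1 (0.22), Raph1 (0.23) and Erlin1 (0.24), at larger distances than for the other 3.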

How the data were processed

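RNA of 4 macrophage and 5 LLC libraries was sequenced on an Illumina instrument from Trizol total RNA, per the labels' protocols. Per the file headers, the authors deposited a read count and an FPKM value per gene and library, for each cell type in its own table. The submitters' processing notes name Cutadapt 1.15, HISAT2 and TopHat2 2.1.0; the counting tool, strand setting and build are not given in the sources used here, and of the LLC genes found in GENCODE M21, 99% had its GRCm38 coordinates. The deposited LLC and macrophage counts were whole numbers, and each FPKM value was recomputed from them within 5.0e-07 and 4.9e-06 of its size. Strand being unknown, reads of Keap1, Gclm and Txnrd1 and of genes annotated opposite to them cannot be told apart.

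Each table was analysed on its own, since the tables were made separately. Counts were scaled by TMM (edgeR 4.0.16, R 4.3.3) to CPM, and genes with a mean of at least 1 CPM were compared, 11049 in macrophages and 11190 in LLC cells. The 12 differences between 2 libraries are log2(CPM + 1), which understates changes of low genes, with exact 95% Clopper-Pearson intervals of the count ratio that cover counting error only. The 5 contrasts came from additive edgeR quasi-likelihood fits with Benjamini-Hochberg adjustment over all genes compared, each fit with 1 residual degree of freedom. The prior degrees of freedom were 5.77 in macrophages and infinite in LLC cells, where a gene's p-value rests on variance pooled over genes and not on its own spread, and all p-values measure only the spread between these libraries; SE is the log2 fold change divided by the root of F. The fit was run on simulated counts drawn from the same additive design with a variance shared by all genes. That run cannot check additivity or a gene's own spread. DESeq2 1.42.0 was an alternative. Figures and other values used Python (numpy 2.4.6, pandas 2.3.3, scipy 1.17.1, matplotlib 3.10.9).

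The members, the 6 pathway lists (57 genes) and the 7 marker lists were chosen with earlier results of these data known. Named are all members, list genes that passed a fit or were among the 2 of their list with the largest difference in a comparison, and the 3 genes nearest in pattern. Total counts alone, DESeq2 size factors, a pseudocount of 0.1, no minimum, a minimum of 5 CPM, fits without a term and fits without the untreated library were tried.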

Additional observations from a re-analysis of the deposited data

Results flagged for a closer look

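For 4 of the 10 genes the response to 4 h of tunicamycin had opposite signs in the macrophage kinds, with both counting intervals away from no change. Those intervals leave out the error of scaling. Prdx1 was near no change in GM-BMDM, where 87.2% of all genes differed at least as much. The difference of responses on the log2 scale, GM-BMDM minus M-BMDM, was -0.81 for Nfe2l2, which was lower with tunicamycin in GM-BMDM (-0.22) and higher in M-BMDM (0.59). It was 0.75 for Nqo1 (0.22 in GM-BMDM and -0.53 in M-BMDM), 0.63 for Prdx1 (0.02 and -0.61) and 0.46 for Keap1 (0.12 and -0.34). With 1 library a group these differences were not tested, and reads of Prdx1 may be shared with its pseudogenes.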

How the results depend on the processing

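Counts of members at least 2-fold apart were equal or within 1.5 times the reported count under DESeq2 size factors, total counts alone, a pseudocount of 0.1, no minimum and a minimum of 5 CPM. A fold of 1.5, chosen after seeing the data, gave 3 members for tunicamycin in M-BMDM, 6 for untreated GM-BMDM against untreated M-BMDM and 7 with tunicamycin in both, 2 and 1 for stressed GM and stressed M medium against untreated cells, and 1 each for stressed against unstressed GM and M medium. For stressed against unstressed medium DESeq2 called 2 members and the fit without the kind of medium 3, and for medium against untreated cells DESeq2 called 3 and the fit without both other terms 1, where Gclm changed sign at 0.0. Leaving out the untreated library also gave 6 calls for stress, which is no check, since that library has its own term. Over all genes edgeR and DESeq2 called 2611 and 453 for stress, 507 and 31 for the kind of medium, 5231 and 1996 for medium and 0 and 52 for tunicamycin. With fewer terms edgeR called 4.64% higher and 3.11% lower for stress, 0.0% in either direction for the kind of medium, and 7.56% higher and 6.89% lower for medium, and with no minimum tunicamycin had 0.294% higher and 0.325% lower with 0 members. The causes of these changes were not tested. Of 120 log2 differences, total counts alone moved 31 beyond their counting interval, and DESeq2 size factors 4. Leaving out a replicate was not possible with 1 library a group. No paired analysis was possible because each group has 1 library and the labels give no replicate numbers.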
